A study of Homo sapiens with 20 samples.

Results

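RNA-seq was used to set the transcriptome of U2-OS cells at 7 days after a single dose of irradiation (IR) against that at 1.5 h after the same dose. U2-OS is a human osteosarcoma cell line with functional p53. The comparison took in 10 of the 20 libraries of the series, 5 biological replicates per time point, chosen by their labels alone. Cells of both groups received 20 Gy and differed in the time between IR and harvest, which the labels give as 90 minutes or 7 days. A further 5 libraries of untreated (UT) U2-OS cells served as the level before IR, and the labels give no time in culture for them. The remaining 5 libraries, with NFKBIA knockdown, were not compared here and entered only the fit shared by all groups. All 20314 genes of the deposited table entered, of which 14992 had enough reads to be tested. The design sets the immediate response to DNA double-strand breaks against the state of the same cell line a week later, when the study describes the cells as senescent.

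Double-strand breaks activate the kinase ATM, which stabilises p53 and also sends a signal from the nucleus to the IκB kinase complex. NF-κB that is freed from its inhibitor IκBα, the product of NFKBIA, switches on genes for its own brakes, for survival factors and for cytokines. Immediate early genes such as FOS, JUNB, ATF3 and NR4A1 need no new protein synthesis and are known for short bursts of expression. Senescent cells have left the cell cycle for good, carry enlarged lysosomes and secrete interleukins, chemokines, growth factors and proteases, the senescence-associated secretory phenotype (SASP).

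Promoter windows of 10 genes are printed, each from a group described below. They are from brakes and targets of NF-κB, genes of DNA replication and mitosis, interferon-stimulated genes and a lysosomal enzyme. All 10 hold the motif named for them, which not all members of their groups do. The sequences are from RefSeq, build GRCh38.p14, run 5′ to 3′ on the strand of the gene and end 1 base before its start. Capitals mark a κB site in the first 4, the E2F motif in MCM6, the cell cycle homology region (CHR) and CCAAT boxes in CCNB2 and KIF11, the interferon-stimulated response element (ISRE) in IFIT3 and BST2, and the CLEAR element in GAA. Counted from the start of the gene, the κB site of NFKBIA lies at -81 to -72, the sites of TNFAIP3 at -67 to -58 and -55 to -46, and the CHR of CCNB2 and of KIF11 at -29 to -24 and at -28 to -23, in KIF11 on the other strand.
NFKBIA (chr14:35404750-35404899, minus strand): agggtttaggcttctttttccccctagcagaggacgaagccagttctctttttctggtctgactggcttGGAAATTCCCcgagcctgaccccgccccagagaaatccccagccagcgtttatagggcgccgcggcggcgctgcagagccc
TNFAIP3 (chr6:137867109-137867258, plus strand): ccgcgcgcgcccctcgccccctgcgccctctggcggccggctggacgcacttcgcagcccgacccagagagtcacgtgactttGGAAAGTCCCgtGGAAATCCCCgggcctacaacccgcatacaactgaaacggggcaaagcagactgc
CCL20 (chr2:227813692-227813841, plus strand): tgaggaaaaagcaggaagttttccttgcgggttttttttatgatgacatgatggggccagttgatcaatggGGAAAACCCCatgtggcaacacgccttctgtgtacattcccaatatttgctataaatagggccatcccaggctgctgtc
IL6 (chr7:22727050-22727199, plus strand): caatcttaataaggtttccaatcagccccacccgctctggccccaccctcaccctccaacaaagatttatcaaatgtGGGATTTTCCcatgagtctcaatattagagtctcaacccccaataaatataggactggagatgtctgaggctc
MCM6 (chr2:135876444-135876613, minus strand): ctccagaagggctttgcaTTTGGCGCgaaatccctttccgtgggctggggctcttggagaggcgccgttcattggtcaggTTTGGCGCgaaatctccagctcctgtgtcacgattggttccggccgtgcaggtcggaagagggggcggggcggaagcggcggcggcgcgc
CCNB2 (chr15:59104996-59105145, plus strand): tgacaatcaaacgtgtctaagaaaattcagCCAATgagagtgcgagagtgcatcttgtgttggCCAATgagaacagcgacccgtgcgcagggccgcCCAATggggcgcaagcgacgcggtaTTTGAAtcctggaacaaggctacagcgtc
KIF11 (chr10:92592980-92593129, plus strand): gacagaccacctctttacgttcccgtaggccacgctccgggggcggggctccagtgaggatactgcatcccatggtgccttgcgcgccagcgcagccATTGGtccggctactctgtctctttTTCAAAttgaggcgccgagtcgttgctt
IFIT3 (chr10:89327827-89327996, plus strand): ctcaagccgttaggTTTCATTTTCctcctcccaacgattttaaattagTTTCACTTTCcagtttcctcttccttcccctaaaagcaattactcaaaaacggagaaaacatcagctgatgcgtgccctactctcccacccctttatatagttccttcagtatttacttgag
BST2 (chr19:17405631-17405800, minus strand): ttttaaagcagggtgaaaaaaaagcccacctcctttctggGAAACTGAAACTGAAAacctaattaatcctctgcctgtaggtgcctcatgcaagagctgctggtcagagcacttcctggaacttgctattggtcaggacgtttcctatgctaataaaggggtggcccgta
GAA (chr17:80101431-80101580, plus strand): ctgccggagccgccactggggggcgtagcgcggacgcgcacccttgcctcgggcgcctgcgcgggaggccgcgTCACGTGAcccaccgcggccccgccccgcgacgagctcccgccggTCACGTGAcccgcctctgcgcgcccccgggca

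The letters searched on both strands were TTTCCCGC or TTTGGCGC for E2F, TTTGAA for the CHR, CCAAT for the CCAAT box, TCACGTGA for CLEAR and TGANTCA for AP-1, and the κB site, the ISRE, the CArG box and the ER stress and sterol response elements were searched by their consensus. The window for these counts ran from 250 bases before to 50 bases after each start, and a window was counted once however many matches it held. Of the 41 DNA replication genes tested 36 had a window, and 17 of these (47.2%) held the E2F motif, against 3.49% of 11110 windows of all genes tested and 2.31% of all 27305 windows in the RefSeq table. The CHR was found in 25 of 36 windows of mitosis genes (69.4%), against 10.2% of genes tested and 15.4% of all windows. A CHR together with a CCAAT box occurred in 21 of the 36 (58.3%), against 4.28% of genes tested and 6.08% of all windows. The ISRE was present in 16 of 24 windows of interferon-stimulated genes (66.7%) and in 7 of 12 of antigen presentation genes (58.3%), against 2.85% of genes tested and 3.65% of all windows. CLEAR was present in 5 of 21 lysosomal windows (23.8%), against 1.77% and 1.04%. The κB site was matched in 5 of 12 windows of NF-κB inhibitors and brakes (41.7%), against 13% and 10.8%, and AP-1 in 3 of 8 windows of SASP proteases and their inhibitors (37.5%), against 5.03% and 7.76%. These pairs of a list and a motif were chosen with the shares known. Among the pairs not plotted, matches were found for the CCAAT box in 13 of 16 windows of cholesterol synthesis genes (81.2%, against 36% of genes tested). The κB site was matched in 6 of 12 windows of antigen presentation genes (50%, against 13%). The ER stress response element was in 5 of 22 windows of genes of ER folding and stress response (22.7%, against 0.117%). The others included the sterol regulatory element in 1 of 16 windows of cholesterol synthesis genes (6.25%, against 1.16%). They also included the CArG box in 2 of 18 windows of immediate early genes (11.1%, against 1.03%). The κB site was in 12.5% of windows of genes higher at 7 days, against 13%. In SASP interleukins and chemokines it was matched in 3 of 11 windows (27.3%, against 13%). These 3 were IL6, CCL20 and CXCL3, and the windows of CXCL8 and IL1A held none. These matches describe letters and not binding.

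**Figure D1:**
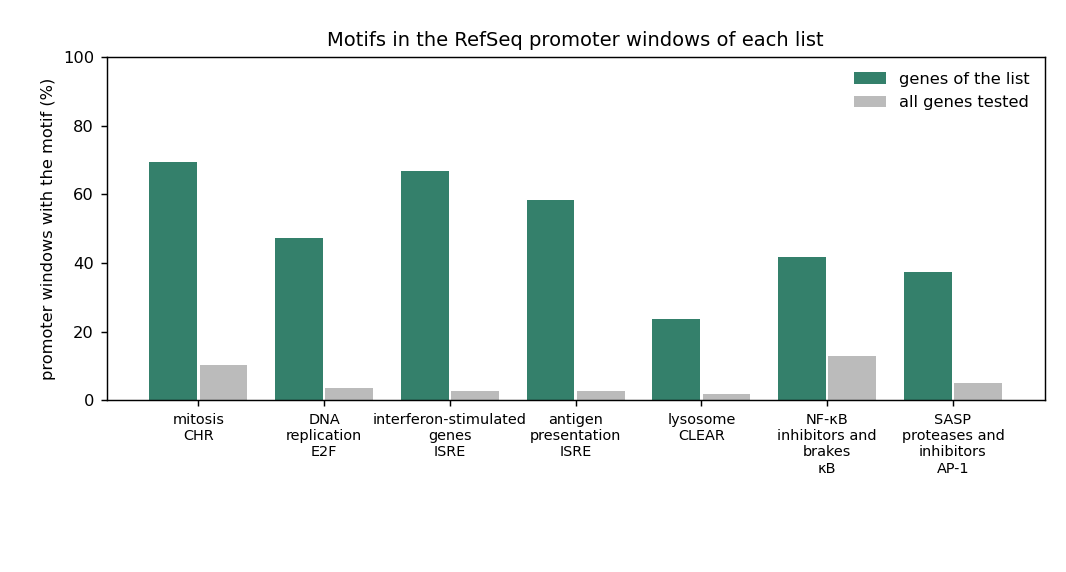
Share of RefSeq promoter windows (y axis, in %) that hold the named motif, for the genes of 7 lists (green bars) and for all genes tested with a window (grey bars). The green bar is higher in the 7 pairs shown, which were chosen with the shares known, from 23.8% against 1.77% for CLEAR in lysosomal genes to 69.4% against 10.2% for the CHR in mitosis genes.

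The 2 time points differed in a large part of the transcriptome. With edgeR's quasi-likelihood test, 2513 genes (16.8% of those tested) were higher at 7 days and 1885 (12.6%) were lower, at a log2 fold change over 0.5 in size and an adjusted p under 0.05. In all 29.3% of genes passed both limits, which is the background against which each list below is read. Large changes were mostly rises, since 387 genes rose and 75 fell by over 2 on the log2 scale, and 139 rose and 24 fell by over 3. The 5 libraries of one time point did not overlap with those of the other for 61.8% of genes, 31.9% higher and 29.9% lower at 7 days, and absence of overlap alone is therefore common here. Total counts ranged from 34345867 to 39546228 at 1.5 h and from 27547705 to 34307447 at 7 days. The 10 genes with most reads took 3.11 to 3.24% of reads at 1.5 h and 3.46 to 3.64% at 7 days, and genes with at least 1 read numbered 16726 to 16886 against 17431 to 17571. Values below are in CPM, the reads of a gene relative to all reads on genes and scaled by the TMM factors, in the order of replicates 1 to 5. They are relative to the total of a bulk library, in which fewer cells of a kind and less RNA per cell cannot be told apart. The time points were sequenced in part on different lanes, with replicates 4 and 5 at 1.5 h and replicates 1 and 2 at 7 days sharing one. Within that lane 3949 of the 4398 calls (89.8%) were made again in the same direction, and the median log2 fold change was 0.692 for lysosomal genes, -0.801 for mitosis genes and 0.684 for SASP interleukins and chemokines. UT replicate 5 stood apart from the other UT libraries, with a chi-square per gene of 101.8 to 165.6 against each of them and of 11.82 to 76.3 among the others. It takes part in the spread that the fit shares over all groups, and without it 2538 genes were higher and 1980 lower at 7 days.

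**Figure D2:**
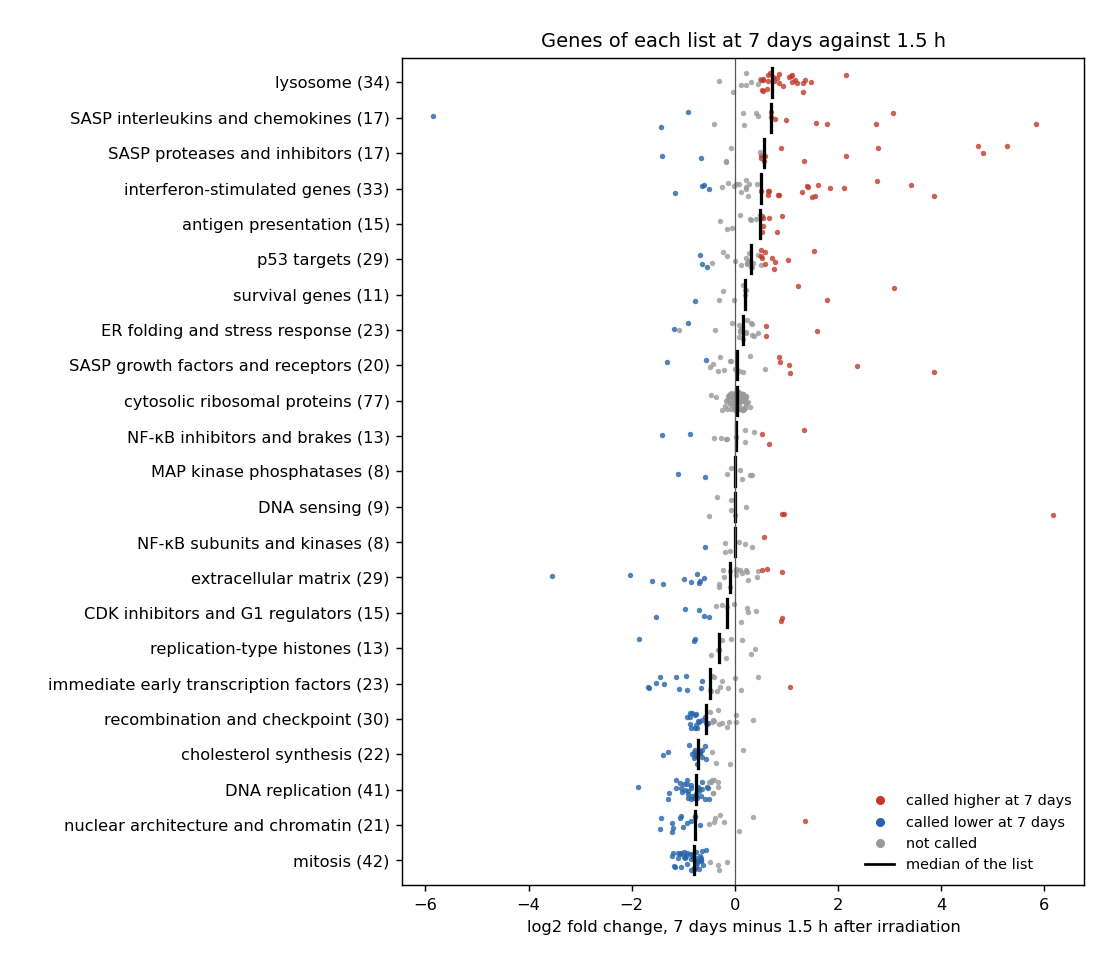
Log2 fold change between 7 days and 1.5 h after IR (x axis) of each tested gene in 23 lists (y axis, number of genes tested in parentheses), with called genes in red or blue, uncalled genes in grey and the median of each list as a black bar. Medians run from -0.801 for mitosis to 0.714 for the lysosome, and the ribosomal proteins sit near 0 with no call.

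Immediate early transcription factors were lower at 7 days as a group. Of 23 genes tested 11 fell and 1 rose (47.8% and 4.35%, against 12.6% and 16.8% of all genes), with a median log2 fold change of -0.489. ATF3, a stress-induced transcription factor, was at 109, 99.8, 106, 110.0 and 111 CPM at 1.5 h and at 33.7, 35.1, 32.6, 33.1 and 34.3 CPM at 7 days. All 5 early libraries lay far above all late ones (log2 fold change -1.67 ± 0.082 SE, adjusted p = 3.48e-13), and ATF3 at 7 days was still 0.93 on the log2 scale above UT cells, which were at 17.6 ± 2.37 CPM (SD, n = 5, as for all means below). NR4A1, an orphan nuclear receptor, was at 50.5, 45.1, 46.5, 49.4 and 50.1 CPM at 1.5 h and at 13.5, 15.5, 14.2, 16.4 and 15.9 CPM at 7 days (log2 fold change -1.68 ± 0.062 SE, adjusted p = 4.11e-15). It went below the UT level of 27.4 ± 0.885 CPM in every late library. JUNB, a partner of FOS in the AP-1 complex, was at 187, 151, 175, 156 and 173 CPM early and 64.3, 65.4, 62.7, 66.9 and 67.2 CPM late (log2 fold change -1.37 ± 0.085 SE, adjusted p = 1.54e-11). The late libraries of JUNB lay in a narrow band near the UT mean of 76.5 ± 13.1 CPM.

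The AP-1 and EGR families were not uniform. EGR2, a zinc finger factor, fell by 1.52 on the log2 scale from 11.9 ± 2.0 to 4.13 ± 0.774 CPM (adjusted p = 2.89e-07). JUND, FOS and IER3 fell with log2 fold changes of -1.08 ± 0.12, -0.95 ± 0.063 and -1.15 ± 0.083 (SE). EGR1 was at 143, 162, 210.4, 174 and 173 CPM early and 139, 139.8, 131, 133 and 133 CPM late, and did not pass (log2 fold change -0.35 ± 0.22 SE, adjusted p = 0.176) although its libraries did not overlap. Without UT replicate 5 its adjusted p was 0.000382, still under the fold limit. JUN had a log2 fold change of -0.44 ± 0.047 and FOSL2 of -0.26 ± 0.061, both under the fold limit. KLF6 was the only riser on the list. This zinc finger factor was at 67.4, 70.1, 66.1, 74.4 and 74.1 CPM early and 145, 137, 163, 149 and 146 CPM late (log2 fold change 1.07 ± 0.069 SE, adjusted p = 2.21e-11), and its early libraries lay below the UT mean of 91.6 ± 11.1 CPM. Among 8 MAP kinase phosphatases, which end the kinase signals that drive immediate early genes, DUSP2 and DUSP8 fell (-1.09 ± 0.10 and -0.59 ± 0.11; 25% of the list, against 12.6% of all genes) and none rose (2 higher at an unadjusted p under 0.05, and 0 called with DESeq2), while DUSP1 had a log2 fold change of 0.34 ± 0.077.

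Of 13 inhibitors and brakes of NF-κB tested 3 rose and 2 fell (23.1% and 15.4%, near the 16.8% and 12.6% of all genes), with a median log2 fold change of 0.0137. NFKBIA, which codes for IκBα, was at 88.3, 76.3, 80.0, 78.8 and 87 CPM at 1.5 h and at 30.4, 28.4, 32.4, 32 and 30.5 CPM at 7 days (log2 fold change -1.42 ± 0.10 SE, adjusted p = 1.94e-10). NFKBIA was 2.67 times as high at 1.5 h, and the late libraries lay inside the UT range. TNFAIP3, which codes for the ubiquitin-editing enzyme A20, was at 48.5, 45, 48.8, 47.7 and 57 CPM early and 25, 27.7, 30.2, 27.6 and 24.8 CPM late (log2 fold change -0.87 ± 0.09 SE, adjusted p = 4.26e-08). No late library reached the lowest early one, and against UT the log2 difference at 7 days was 0.55.

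Several other brakes went the opposite way from NFKBIA. NFKBIZ, which codes for the nuclear co-regulator IκBζ, was at 36.3, 35, 33.9, 37.5 and 36.9 CPM early and 55.6, 51.7, 55.6, 59.6 and 60.8 CPM late, with all late libraries higher (log2 fold change 0.66 ± 0.09 SE, adjusted p = 2.05e-06). CYLD, a deubiquitinase that restrains IκB kinase, rose from 88.6 ± 2.98 to 128 ± 1.6 CPM (log2 fold change 0.53 ± 0.073 SE), a rise that came under the fold limit without early replicate 1 or 4 or late replicate 4 (0.49, 0.50 and 0.50) and with no filter on low counts (0.50). TNIP3, a binding partner of A20, rose at a low level from 0.767 ± 0.238 to 1.95 ± 0.174 CPM. NFKBIE, which codes for IκBε, overlapped between time points and was not called (-0.28 ± 0.076), and both groups were above the UT mean of 39.5 ± 5.1 CPM.

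Of 8 genes for NF-κB subunits and kinases tested 1 rose and 1 fell (12.5% each, against 16.8% and 12.6% of all genes). RELA, which codes for p65, was at 116 ± 1.65 CPM at 1.5 h and 122 ± 2.0 CPM at 7 days (log2 fold change 0.073 ± 0.12 SE, adjusted p = 0.622). NFKB1 and NFKB2, which code for the precursors of p50 and p52, had log2 fold changes of -0.085 ± 0.057 and 0.34 ± 0.05, the second with no overlap, and were not called. IKBKB, which codes for IKKβ, rose from 41.6 ± 2.0 to 61.8 ± 1.25 CPM and REL, which codes for c-Rel, fell from 65.1 ± 6.22 to 43.3 ± 2.4 CPM (adjusted p = 0.0405). The fall of REL did not pass with DESeq2 (adjusted p = 0.0533) or when any one of the 10 libraries other than early replicate 1 was left out, and its adjusted p was 0.000206 without UT replicate 5 and 3.34e-08 within the shared lane (log2 fold change -0.71).

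**Figure D3:**
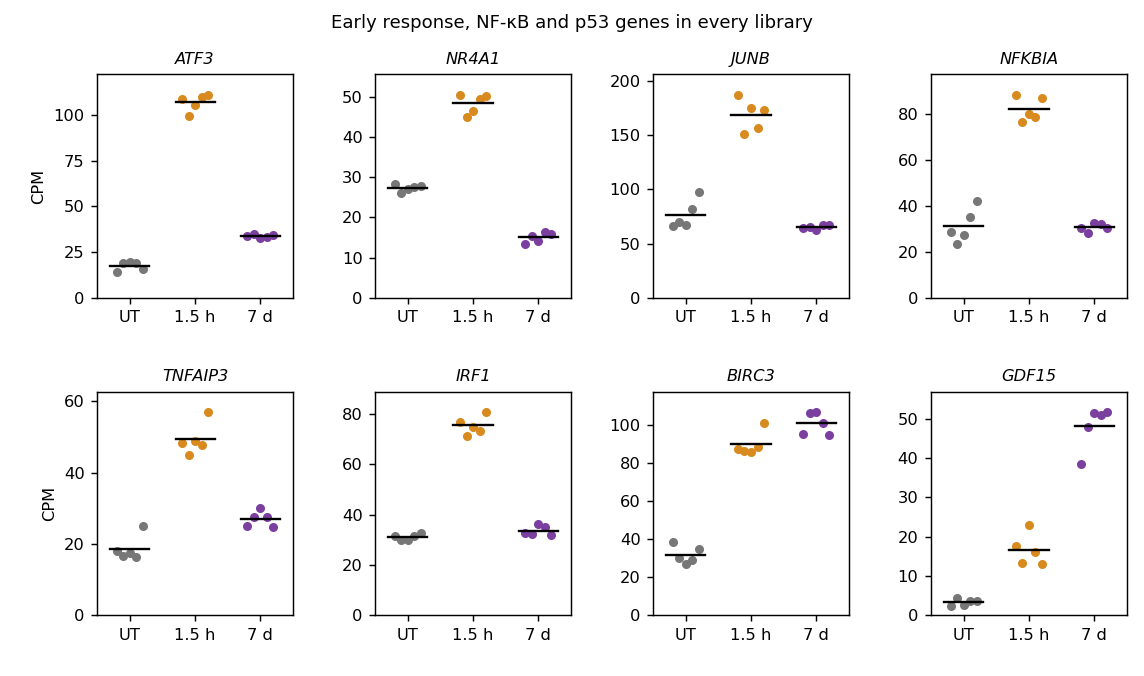
Expression in CPM (y axis, from 0, a scale for each gene) of 8 genes in UT cells, at 1.5 h and at 7 days after IR, with 1 point per library and the mean of 5 libraries as a bar. ATF3, NR4A1, JUNB, NFKBIA, TNFAIP3 and IRF1 are highest at 1.5 h, BIRC3 overlaps between the times after IR and GDF15 is highest at 7 days.

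Survival genes linked to NF-κB were in part as high or higher at 7 days. Of 11 tested 3 rose and 1 fell (27.3% and 9.09%, against 16.8% and 12.6% of all genes), and the median log2 fold change was 0.188. BIRC3, which codes for the inhibitor of apoptosis cIAP2, was at 87.8, 86.5, 86.1, 88.7 and 101 CPM early and 95.5, 107, 107, 101 and 95.2 CPM late. The groups overlapped and no difference was called (log2 fold change 0.17 ± 0.08 SE, adjusted p = 0.0775), and every library of both lay above the UT mean of 32 ± 4.57 CPM. BCL2A1, an anti-apoptotic member of the BCL2 family, was at 0.61, 1.18, 1.35, 0.996 and 0.821 CPM early and 8.63, 8.31, 8.19, 8.7 and 8.41 CPM late. It was 8.54 times as high at 7 days (log2 fold change 3.09 ± 0.17 SE, adjusted p = 1.46e-12), and its early libraries were near the UT level of 0.87 ± 0.311 CPM. BCL2L1, which codes for BCL-XL, was at 174, 171, 157, 166 and 168 CPM early and 404, 382, 415, 393 and 369.6 CPM late, with all late libraries above all early ones (log2 fold change 1.23 ± 0.058 SE, adjusted p = 1.54e-13). TRAF1, an adaptor of TNF receptors, rose from 11.4 ± 1.73 to 39 ± 4.46 CPM (log2 fold change 1.78 ± 0.093 SE, adjusted p = 9.17e-13). GADD45B, a stress sensor, fell from 39.6 ± 1.78 to 23.2 ± 0.762 CPM, and MCL1 had a log2 fold change of -0.32 ± 0.056, under the fold limit.

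Targets of p53 were above UT at both times, with a median log2 fold change against UT of 0.857 at 1.5 h and of 1.12 at 7 days, and both medians use the same UT libraries. Between the time points 10 of 29 tested rose (34.5%, against 16.8% of all genes) and 3 fell (10.3%, against 12.6%), with a median of 0.320. CDKN1A, which codes for the CDK inhibitor p21, was at 714, 656, 673, 705 and 702 CPM early and 805, 837, 807, 823 and 811 CPM late. All late libraries were higher than all early ones by a margin under the fold limit (log2 fold change 0.24 ± 0.051 SE, adjusted p = 0.00033), and UT cells were at 225 ± 17.2 CPM. MDM2, the ubiquitin ligase of p53, lay at the limit without passing it (log2 fold change 0.50 ± 0.04 SE, adjusted p = 6.13e-10), and passed it with upper-quartile factors (0.53), library size alone (0.52) or lane as a factor (0.53), without late replicate 5 (0.51) and within the shared lane (0.52).

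GDF15, a secreted stress hormone, was at 17.7, 13.4, 22.9, 16.2 and 13 CPM early and 38.5, 48, 51.5, 50.9 and 51.7 CPM late (log2 fold change 1.53 ± 0.14 SE, adjusted p = 6.48e-09), which is further above the UT mean of 3.33 ± 0.784 CPM. FAS, a death receptor, rose from 69.9 ± 1.09 to 120.0 ± 1.76 CPM, and FDXR, a mitochondrial reductase, from 106 ± 6.51 to 217 ± 11.9 CPM. ZMAT3, an RNA-binding protein, rose with a log2 fold change of 0.71 ± 0.058 and RRM2B, a ribonucleotide reductase subunit for repair, with 0.59 ± 0.075. The genes that fell were PPM1D, which codes for the phosphatase that switches off the damage signal, BTG2, an antiproliferative gene of the immediate response, and BBC3, which codes for the pro-apoptotic protein PUMA. PPM1D was at 214, 212, 226, 216 and 202 CPM early and 133, 139, 133, 131 and 132 CPM late (log2 fold change -0.68 ± 0.057 SE, adjusted p = 1.76e-09). All late libraries of PPM1D were lower than the early ones and higher than the UT mean of 82.6 ± 9.39 CPM. BTG2 fell from 237 ± 5.55 to 153 ± 6.32 CPM and BBC3 from 91.7 ± 7.28 to 63.1 ± 1.77 CPM, against UT means of 64 and 32.1 CPM.

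SASP interleukins and chemokines were mostly higher at 7 days. Of 17 tested 9 rose and 3 fell (52.9% and 17.6%, against 16.8% and 12.6% of all genes), and the median log2 fold change was 0.693, or 0.443 when genes with under 10 counts in any library were left out. CXCL8, which codes for the neutrophil chemoattractant IL-8, was at 14.8, 14.6, 16.7, 16.5 and 19 CPM early and 51.9, 44.6, 67.4, 56.4 and 59.2 CPM late (log2 fold change 1.78 ± 0.13 SE, adjusted p = 1.29e-10). It was already above UT (4.39 ± 1.12 CPM) at 1.5 h, by 1.87 on the log2 scale. IL1A, an upstream interleukin of the SASP, was at 1.45, 1.1, 1.18, 1.03 and 1.02 CPM early and 9.33, 8.21, 11.2, 10.3 and 9.49 CPM late, with no overlap (log2 fold change 3.06 ± 0.17 SE, adjusted p = 1.41e-12). CCL20, a ligand of CCR6, was at 1.68, 1.93, 2.22, 1.64 and 1.87 CPM early and 4.65, 5.75, 5.51, 6.6 and 5.34 CPM late (log2 fold change 1.57 ± 0.14 SE, adjusted p = 2.73e-09). Its early libraries lay in the UT range, where the mean was 1.73 ± 0.407 CPM. IL6 was low throughout, at 0.406, 0.0865, 0.337, 0.146 and 0.312 CPM early and 1.55, 1.61, 1.59, 2.4 and 1.72 CPM late, and every late library was above every early one (log2 fold change 2.74 ± 0.34 SE, adjusted p = 4.86e-07). IL1B had at most 1 count in any early library and was at 0.614, 0.394, 0.75, 0.517 and 0.358 CPM late, which is at least 5.99-fold higher than 3 counts per early library.

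The 3 genes of the list that fell included the largest fall among the genes named here. CXCL14, a chemokine of resting epithelia, was at 44.1, 45.6, 47.2, 43.9 and 58.8 CPM at 1.5 h and at 0.878, 1.02, 0.634, 0.822 and 0.824 CPM at 7 days (log2 fold change -5.84 ± 0.19 SE, adjusted p = 6.87e-16). UT cells were at 60.9 ± 16.5 CPM, and the late libraries were close to 1 CPM. The gene overlaps SLC25A48 on the opposite strand, and how strand was treated in counting is not given in the sources used here. CX3CL1, which codes for the membrane-bound chemokine fractalkine, fell from 28 ± 1.59 to 10.5 ± 1.3 CPM (log2 fold change -1.42 ± 0.11 SE, adjusted p = 5.66e-10), and IL15 from 7.66 ± 0.634 to 4.08 ± 0.298 CPM. CSF1 and LIF had log2 fold changes of 0.44 ± 0.056 and 0.41 ± 0.055, under the fold limit with no overlap of libraries.

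Secreted proteases and their inhibitors rose in 11 of 17 genes tested (64.7%, against 16.8% of all genes) and fell in 2 (11.8%, against 12.6%), with a median log2 fold change of 0.569. CTSB, which codes for the lysosomal and secreted protease cathepsin B, was at 785, 778, 875, 793 and 808 CPM early and 3375, 3644, 3716, 3668 and 3529 CPM late. It was 4.44 times as high at 7 days (log2 fold change 2.15 ± 0.077 SE, adjusted p = 2.88e-15), and early libraries differed from UT (825 ± 107 CPM) by -0.03 on the log2 scale. MMP3, which codes for stromelysin, was at 0.254, 0.317, 0.366, 0.264 and 0.34 CPM early and 6.41, 8.21, 7.35, 10.5 and 11.3 CPM late (log2 fold change 4.81 ± 0.25 SE, adjusted p = 8.3e-13). MMP1, an interstitial collagenase, had at most 2 counts in any early library and was at 0.761, 0.558, 1.07, 0.791 and 0.752 CPM late, at least 8.94-fold higher than 3 counts per library. TIMP1, an inhibitor of these proteases, rose from 1371 to 3482 CPM on average (log2 fold change 1.34 ± 0.082). MMP13 and MMP9, which degrade collagens, went down. MMP13 fell from 8.51 ± 1.16 to 3.17 ± 0.438 CPM and MMP9 from 161 ± 9.98 to 103 ± 4.38 CPM, while MMP2, the most abundant of the family here at 934 ± 21.3 CPM early, had a log2 fold change of -0.17 ± 0.059.

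Growth factors and receptors of the SASP did not move together, with 6 of 20 up and 2 down (30% and 10%, against 16.8% and 12.6% of all genes) and a median log2 fold change of 0.0347 that lay between -0.0836 and 0.0999 under the alternatives. NRG1, a ligand of ERBB receptors, was at 6.0, 5.25, 4.72, 5.39 and 5.01 CPM early and 27.3, 29.8, 21.1, 27.3 and 30.4 CPM late (log2 fold change 2.36 ± 0.14 SE, adjusted p = 4.53e-12). EGFR and its ligand EREG rose by a like amount (1.06 ± 0.12 and 1.06 ± 0.14), and HBEGF, another ligand of this receptor, fell (-0.56 ± 0.068). IGFBP5, which binds insulin-like growth factors, was at 286, 354, 391, 379.6 and 368 CPM early and 168, 139, 120.3, 137 and 147 CPM late (log2 fold change -1.32 ± 0.14 SE, adjusted p = 8.22e-08), and the UT libraries ranged widely around 460.5 ± 141 CPM. ANGPTL4 rose from at most 3 counts per early library to 0.788 ± 0.162 CPM, at least 8.97-fold. TGFB1, at 235 ± 11.8 CPM early and 186 ± 6.51 CPM late, did not pass the test (log2 fold change -0.33 ± 0.22 SE, adjusted p = 0.198), and without UT replicate 5, which held the highest value of 733 CPM, its adjusted p was 6.83e-07, still under the fold limit.

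**Figure D4:**
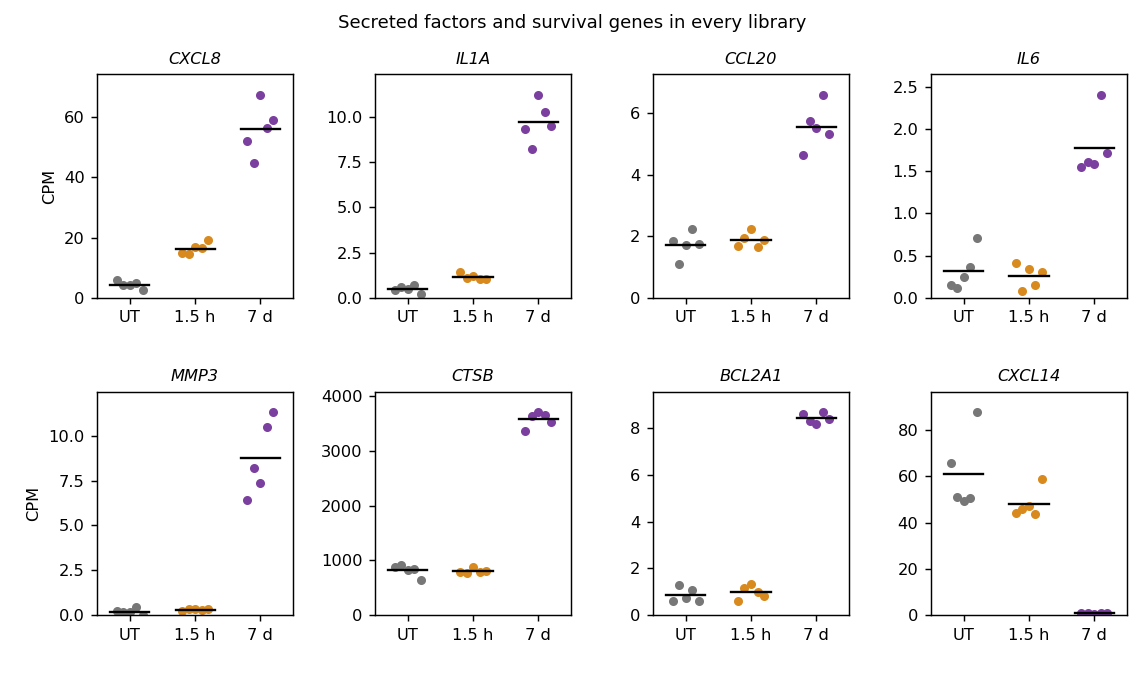
Expression in CPM (y axis, from 0, a scale for each gene) of 8 genes for secreted factors, a lysosomal protease and a survival factor in UT cells, at 1.5 h and at 7 days after IR, with 1 point per library and the mean of 5 libraries as a bar. In CXCL8, IL1A, CCL20, IL6, MMP3, CTSB and BCL2A1 the late libraries lie above all others, and in CXCL14 they lie below all others.

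Interferon-stimulated genes rose in 17 of 33 tested (51.5%, against 16.8% of all genes) and fell in 4 (12.1%, against 12.6%), and their median log2 fold change was 0.512. At 1.5 h their median against UT was 0.00225, near the level before IR. OAS1, which codes for an enzyme that senses double-stranded RNA, was at 0.61, 0.375, 0.506, 0.849 and 0.651 CPM early and 3.74, 4.24, 4.07, 4.35 and 3.8 CPM late (log2 fold change 2.75 ± 0.18 SE, adjusted p = 3.4e-11). IFIT2, which binds viral RNA, was at 1.45, 1.84, 2.31, 2.08 and 1.9 CPM early and 7.75, 7.95, 7.84, 9.56 and 8.38 CPM late (log2 fold change 2.12 ± 0.13 SE, adjusted p = 1.82e-11). GBP2, a guanylate-binding protein, was at 5.56, 6.37, 5.62, 5.51 and 6.26 CPM early and 22.2, 18.1, 25.1, 20.4 and 20.1 CPM late (log2 fold change 1.85 ± 0.10 SE, adjusted p = 8.65e-13). In these 3 genes no late library overlapped with an early one. IFIT3 and BST2, whose promoter windows are printed above, rose with log2 fold changes of 1.56 ± 0.11 and 1.49 ± 0.18, BST2 at a mean of only 1.58 CPM late. The genes IFIT1, IFIT2 and IFIT3 overlap LIPA, a lysosomal gene that also rose, on the opposite strand. GBP2 overlaps GBP7 on the same strand. Whether reads were shared in these cases was not tested. DDX58, which codes for the RNA sensor RIG-I, rose from 35 to 86.8 CPM on average (1.31 ± 0.057).

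The list was not uniform. IRF1, a transcription factor that is a target of NF-κB, was at 76.7, 71.2, 74.9, 73.3 and 80.8 CPM at 1.5 h and at 32.8, 32.4, 36.1, 34.9 and 31.9 CPM at 7 days (log2 fold change -1.16 ± 0.047 SE, adjusted p = 1.58e-14), with a UT mean of 31.1 ± 1.25 CPM. IFIT1, a neighbour of IFIT2 and IFIT3 in the same family, fell from 13.3 ± 0.426 to 8.79 ± 0.526 CPM (log2 fold change -0.60 ± 0.091 SE, adjusted p = 7.77e-06). USP18 and CMPK2 fell at means under 2 CPM with overlapping libraries (-0.64 ± 0.20 and -0.51 ± 0.16), and CMPK2 came under the fold limit with upper-quartile factors (-0.48), library size alone (-0.49) or lane as a factor (-0.25), without early replicate 1, 2 or 3 or late replicate 2 or 5 (-0.44 to -0.50) and within the shared lane (-0.26). In that lane USP18 had a log2 fold change of -1.48 (adjusted p = 0.000146, edgeR). STAT2, a signal transducer of interferons, rose (0.64 ± 0.072).

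Genes of antigen presentation and of DNA sensing were in part higher. On the first list 7 of 15 rose and none fell (46.7%, against 16.8% of all genes), with a median log2 fold change of 0.496. At an unadjusted p under 0.05, 2 were lower, and DESeq2 called 0 lower. HLA-B was at 413, 383, 403, 391 and 412 CPM early and 747, 805, 796, 743 and 695 CPM late (log2 fold change 0.92 ± 0.077 SE, adjusted p = 1.5e-09). B2M, the light chain of class I molecules, rose from 598 ± 11.6 to 869 ± 43.9 CPM, and TAP1, a peptide transporter, from 63.1 ± 2.84 to 100.2 ± 4.4 CPM. The call of B2M was lost without late replicate 2 or late replicate 3, with log2 fold changes of 0.50 in both. Reads of HLA-B and of its near-identical relatives can be shared, and its value is uncertain for that reason. TMEM173, which codes for STING, was at 9.02, 7.26, 7.82, 8.23 and 8.87 CPM early and 16.9, 16.9, 15.3, 15.2 and 15.7 CPM late (log2 fold change 0.96 ± 0.066 SE, adjusted p = 7.68e-11). IFI16, a nuclear DNA sensor, rose from 113 ± 10.7 to 213 ± 9.72 CPM (log2 fold change 0.92 ± 0.078 SE, adjusted p = 2.07e-09). PYHIN1, a relative of IFI16, had at most 3 counts in an early library and was at 3.01, 4.27, 3.63, 3.1 and 3.51 CPM late, at least 39.9-fold higher. In total 3 of 9 DNA sensing genes rose (33.3%, against 16.8% of all genes) and none fell with edgeR. At an unadjusted p under 0.05, 2 were lower, and DESeq2 called 1 lower. The median log2 fold change of this list was -0.00232, with 4 genes positive and 5 negative.

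Genes of DNA replication were lower at 7 days in nearly every case. Of 41 tested 33 fell (80.5%, against 12.6% of all genes), none rose, and the median log2 fold change was -0.759. An unadjusted p under 0.05 was reached by all 41 in the lower direction and by 0 in the higher one, and DESeq2 called 34 lower and 0 higher. At 1.5 h the list was near the UT level, with a median of 0.0731 against UT. MCM6, a subunit of the replicative helicase, was at 145, 148, 167, 149.6 and 152 CPM early and 72.2, 67.1, 68.2, 67.8 and 68.2 CPM late (log2 fold change -1.15 ± 0.072 SE, adjusted p = 1.76e-11), and UT cells were at 146 ± 20.4 CPM. E2F2, a transcription factor of the G1/S transition, was at 36.9, 37.4, 43.3, 39 and 40.4 CPM early and 10.1, 11.7, 11.4, 10.1 and 10.1 CPM late (log2 fold change -1.88 ± 0.069 SE, adjusted p = 3.85e-15), the largest fall on the list. E2F1 fell from 60.3 ± 3.32 to 27.4 ± 0.831 CPM and GINS2, a partner of the helicase, from 102 ± 2.58 to 41.6 ± 1.85 CPM. The nucleotide enzymes RRM2 and TYMS stayed under the fold limit with log2 fold changes of -0.42 ± 0.043 and -0.41 ± 0.078, and their libraries did not overlap.

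Mitosis genes fell in 38 of 42 tested (90.5%, against 12.6% of all genes) and rose in none, with a median log2 fold change of -0.801. Neither an unadjusted p under 0.05 nor DESeq2 gave a higher gene. Against UT their median was -0.274 at 1.5 h and -1.10 at 7 days, with the same UT libraries in both. NUSAP1, a spindle protein, was at 184, 192, 184, 192 and 197 CPM early and 81.3, 84.5, 79, 78.7 and 81.1 CPM late (log2 fold change -1.23 ± 0.067 SE, adjusted p = 1.8e-12). FOXM1, a transcription factor that drives G2/M genes, was at 317, 311, 285, 314 and 322 CPM early and 138, 139, 137, 136 and 130.3 CPM late (log2 fold change -1.19 ± 0.13 SE, adjusted p = 7.19e-08). MKI67, the Ki-67 antigen, was at 531, 619, 612, 593 and 620.1 CPM early and 279, 255, 265, 273 and 264 CPM late (log2 fold change -1.16 ± 0.23 SE, adjusted p = 0.000164). All late libraries of these genes lay below all early ones, and the UT means were 207, 402 and 896 CPM. CCNB2 and KIF11, whose windows hold the CHR, fell with log2 fold changes of -0.96 ± 0.071 and -1.10 ± 0.046.

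The mitotic kinases AURKA and PLK1 were below UT at 1.5 h. AURKA, which codes for Aurora kinase A, was at 90.8, 91.6, 79.7, 85.7 and 93.6 CPM early and 71.8, 71.2, 71.2, 70.3 and 69.1 CPM late, against a UT mean of 144 ± 15.6 CPM. Its log2 difference from UT was -0.71 at 1.5 h and -1.03 at 7 days, and the difference between the time points was under the fold limit (log2 fold change -0.32 ± 0.061 SE, adjusted p = 0.000108). PLK1 had a log2 difference from UT of -0.74 at 1.5 h and of -1.57 at 7 days. HMMR, a spindle protein, was at 79.7 ± 2.72 CPM early and 72.2 ± 1.82 CPM late and was not called.

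**Figure D5:**
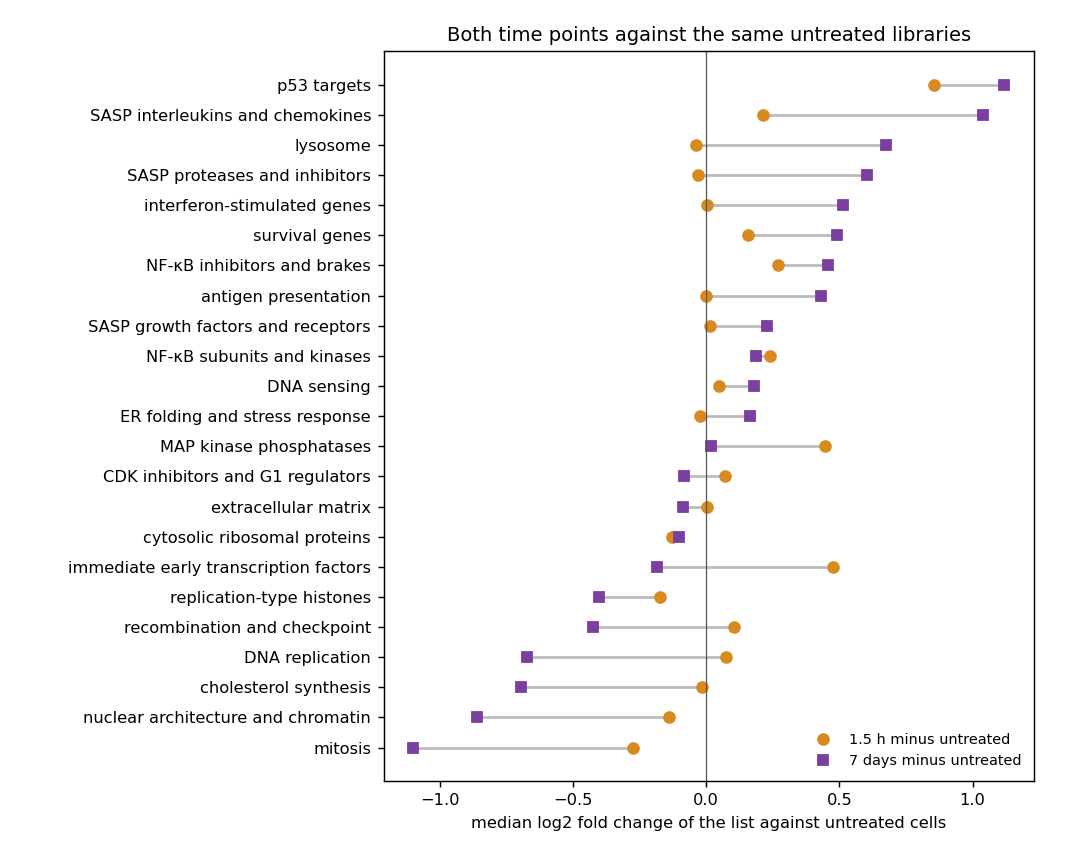
Median log2 fold change against UT cells (x axis) of the genes of 23 lists (y axis) at 1.5 h (orange circles) and at 7 days (purple squares), each time against the same 5 UT libraries. The p53 targets are high at both times, the early genes are high at 1.5 h (0.477) and not at 7 days (-0.186), and DNA replication, cholesterol synthesis and lysosome lists are near 0 at 1.5 h.

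Recombination and checkpoint genes fell in 18 of 30 tested (60%, against 12.6% of all genes) and rose in none, with a median of -0.566, and with 1 higher at an unadjusted p under 0.05 and 0 with DESeq2. BARD1, a partner of BRCA1, was at 43.7, 48, 47.6, 44.9 and 45.6 CPM early and 23.9, 26, 23.8, 22.5 and 24.5 CPM late (log2 fold change -0.93 ± 0.062 SE, adjusted p = 4.57e-11). CLSPN, DNA2 and TIMELESS, which guard replication forks, fell with log2 fold changes of -0.88 ± 0.15, -0.88 ± 0.059 and -0.87 ± 0.052. ATR, the kinase that answers stalled forks, had a log2 fold change of 0.36 ± 0.076 in the other direction, under the fold limit. NBN, a subunit of the complex that binds broken ends, was at 111 ± 4.4 CPM early and 83.3 ± 2.48 CPM late (-0.42 ± 0.05).

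CDK inhibitors were not higher as a group. CDKN2C, which codes for p18, was at 54.1, 46.3, 47.1, 48.9 and 48.5 CPM early and 18.1, 16.3, 16.8, 17.2 and 16.6 CPM late (log2 fold change -1.53 ± 0.065 SE, adjusted p = 3.86e-14), and UT cells were at 70.0 ± 6.96 CPM. CDKN1C and CDKN2D fell too (-0.70 ± 0.11 and -0.60 ± 0.088). CDKN2A, which codes for p16, had at most 2 counts in any of the 10 libraries and was not tested. Both CCND1 and CCND2, which code for D-type cyclins, rose. CCND1 was at 373, 372, 337, 361 and 384 CPM early and 729, 664, 671, 669 and 695 CPM late (log2 fold change 0.91 ± 0.047 SE, adjusted p = 7.92e-13), and CCND2 went from 213 ± 21.1 to 399 ± 28.1 CPM. Of 15 genes on this list 2 rose and 5 fell (13.3% and 33.3%, against 16.8% and 12.6% of all genes), with the pocket protein RBL1 among the latter (-0.97 ± 0.076).

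Genes of nuclear architecture and chromatin fell in 13 of 21 tested (61.9%, against 12.6% of all genes), with a median log2 fold change of -0.770. LMNB1, which codes for lamin B1, was at 296, 279, 300.5, 277 and 295 CPM early and 108, 111, 106, 101 and 106 CPM late (log2 fold change -1.44 ± 0.043 SE, adjusted p = 1.77e-16). LMNB1 was 2.72 times as high at 1.5 h, and UT cells were at 319 ± 13.1 CPM. HMGB1, an architectural protein of chromatin, was at 240.1, 238, 228, 227 and 246 CPM early and 101, 107, 103, 101 and 104 CPM late (log2 fold change -1.19 ± 0.08 SE, adjusted p = 4.6e-11). H1FX, a linker histone, was at 211, 154, 164, 165 and 174 CPM early and 66.8, 61.6, 62.1, 63.6 and 65.7 CPM late (log2 fold change -1.44 ± 0.079 SE, adjusted p = 2.17e-12). H1F0, a replacement linker histone, fell from 814 ± 20.4 to 349 ± 9.77 CPM, and EZH2, the methyltransferase of Polycomb, with a log2 fold change of -1.04 ± 0.043. HMGA2 alone rose on this list. This architectural protein was at 38.3, 41.1, 40.0, 37 and 38.9 CPM early and 99.6, 99.6, 96.8, 102 and 101 CPM late (log2 fold change 1.35 ± 0.13 SE, adjusted p = 1.43e-08), and LMNA had a log2 fold change of -0.22 ± 0.076. Among 13 replication-type histone genes 3 fell (23.1%, against 12.6% of all genes) and none rose (1 at an unadjusted p under 0.05, 0 with DESeq2), and their messages without a poly(A) tail are not captured well by mRNA libraries.

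Lysosomal genes had the highest share of rises among the 25 lists. Of 34 tested 26 rose (76.5%, against 16.8% of all genes) and none fell, with a median log2 fold change of 0.714. Neither an unadjusted p under 0.05 nor DESeq2 gave a lower gene. At 1.5 h the list was near the UT level, with a median of -0.0402 against UT. TPP1, a lysosomal peptidase, was at 181, 198, 216, 202 and 205 CPM early and 557, 569.9, 576, 553 and 525 CPM late (log2 fold change 1.47 ± 0.17 SE, adjusted p = 1.68e-07). NPC1, which exports cholesterol from the lysosome, was at 45, 49.3, 54.1, 48.5 and 48 CPM early and 122, 113, 133, 126 and 119.5 CPM late (log2 fold change 1.32 ± 0.088 SE, adjusted p = 4.27e-11). FUCA1, a fucosidase, was at 50.4, 51, 56.3, 48.9 and 53.7 CPM early and 132, 133, 138, 123 and 125 CPM late (log2 fold change 1.32 ± 0.10 SE, adjusted p = 3.64e-10). In each of these genes all late libraries lay above all early ones, and they were 2.77, 2.5 and 2.5 times as high at 7 days. PSAP, the precursor of saposins, rose from 1573 to 3398 CPM and GAA, which degrades glycogen, from 65.5 to 148 CPM (log2 fold changes 1.11 ± 0.072 and 1.17 ± 0.074). GLB1, which codes for the β-galactosidase that is stained in senescent cells, rose from 96.1 to 141 CPM (0.55 ± 0.046).

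Cholesterol synthesis genes fell in 18 of 22 tested (81.8%, against 12.6% of all genes) and rose in none, with a median log2 fold change of -0.708, also at an unadjusted p under 0.05 and with DESeq2. INSIG1, which retains the sterol sensor in the endoplasmic reticulum (ER), was at 45.4, 44.3, 39, 43.3 and 46.1 CPM early and 16.5, 16.3, 17.6, 16.2 and 15.9 CPM late (log2 fold change -1.40 ± 0.10 SE, adjusted p = 2.8e-10). EBP, a sterol isomerase, was at 54.5, 48.5, 43, 49.3 and 52.3 CPM early and 20.0, 19.2, 20.9, 20.9 and 20.6 CPM late (log2 fold change -1.29 ± 0.10 SE, adjusted p = 4.23e-10). INSIG1, EBP and FDPS (-0.89 ± 0.073) had no overlap between the time points. SREBF2, which codes for the transcription factor of the pathway, fell with a log2 fold change of -0.64 ± 0.053.

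Of 23 genes of ER folding and stress response 3 rose and 2 fell (13% and 8.7%, against 16.8% and 12.6% of all genes). Their median log2 fold change was 0.162. The folding genes HSPA5, HSP90B1, CALR, CANX, PDIA4 and PDIA6 were not called. DDIT3, which codes for the stress factor CHOP, was at 10.7, 9.65, 14.9, 12.2 and 10.6 CPM early and 32.2, 37.7, 35, 34.8 and 34.7 CPM late (log2 fold change 1.58 ± 0.16 SE, adjusted p = 3.22e-08). ASNS, which makes asparagine and is a target of ATF4, was at 79, 113, 347, 156 and 78.9 CPM early and 67.2, 68.2, 67.2, 69.5 and 68 CPM late (log2 fold change -1.19 ± 0.41 SE, adjusted p = 0.0153). The early libraries were spread widely, with replicate 3 the highest, and the late ones lay within 67.2 to 69.5 CPM. DDIT4, another gene of this stress response, was spread in the same way at 41.3, 56.4, 164, 89 and 42.3 CPM early and 41.8, 43.5, 40.5, 42.8 and 39.9 CPM late. Without early replicate 3 neither passed, with log2 fold changes of -0.67 for ASNS (adjusted p = 0.107, edgeR) and -0.48 for DDIT4 (adjusted p = 0.242), and with the sequencing lane as a factor the adjusted p was 0.186 and 0.285. DDIT4 also did not pass with DESeq2 (adjusted p = 0.06), with upper-quartile factors (0.0516) or library size alone (0.0502), or without early replicate 4 (0.0694) or any one of the 5 late replicates (0.0589 to 0.073). Within the shared lane both were called, at -0.81 for ASNS (adjusted p = 0.00291) and -0.64 for DDIT4 (adjusted p = 0.0203).

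Extracellular matrix genes moved in both directions, with 3 of 29 up and 10 down (10.3% and 34.5%, against 16.8% and 12.6% of all genes) and a median log2 fold change of -0.102, or of -0.222 within the shared lane. COL3A1, a fibrillar collagen, was at 206, 229, 213, 225 and 233 CPM early and 19.2, 16.1, 18.1, 19.1 and 22.7 CPM late (log2 fold change -3.54 ± 0.12 SE, adjusted p = 1.07e-15), and UT cells were at 213 ± 39.5 CPM. COL8A1 and COL5A2 fell with log2 fold changes of -2.03 ± 0.071 and -1.61 ± 0.065. FN1, which codes for fibronectin, was at 3661, 4416, 5050.5, 4311 and 4209 CPM early and 8979, 8244, 8097, 7808 and 7538 CPM late (log2 fold change 0.91 ± 0.16 SE, adjusted p = 4.92e-05). COL1A1, the main collagen of bone, was at 1716 ± 61.2 CPM early and 1467 ± 92.6 CPM late, under the fold limit. Osteoblast markers were read as a check of the osteosarcoma label. SPP1, which codes for osteopontin, was at 12.2, 11.9, 10.7, 10.1 and 10.8 CPM early and 72.5, 71, 68.4, 79.3 and 80.4 CPM late (log2 fold change 2.74 ± 0.11 SE, adjusted p = 2.47e-14), and ALPL rose from 21.5 ± 2.18 to 45.4 ± 5.58 CPM. RUNX2, the transcription factor of the lineage, was at 78.4 ± 8.05 CPM early and 105 ± 4.09 CPM late and was not called, and SP7, IBSP, DLX5 and PTH1R had too few reads to be tested. Markers of other cell types were read too, and 5 of the 12 on this list had enough reads to be tested, all at means under 4 CPM. PTPRC, the leukocyte antigen CD45, rose from 0.849 ± 0.133 to 1.34 ± 0.233 CPM, and the epithelial markers EPCAM and CDH1 fell from 3.28 ± 0.339 to 1.88 ± 0.16 CPM and from 2.27 ± 0.293 to 1.1 ± 0.274 CPM. CD14, CD3E, HBB, CDH5, ALB and GFAP were among those with too few reads. Macrophage markers that are not on this list reached higher levels at 7 days, with MARCO at 38.3, ITGAX at 25.7 and CD68 at 23.2 CPM on average, and their part in the other results was not tested.

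The 77 cytosolic ribosomal protein genes tested gave no call in either direction with edgeR or with DESeq2, and their median log2 fold change was 0.0335. At an unadjusted p under 0.05, 6 were higher and 3 lower. RPL4 was at 1745 ± 37.5 CPM early and 1929.8 ± 59.1 CPM late (log2 fold change 0.15 ± 0.065 SE, adjusted p = 0.0602).

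Among called genes with no overlap and a mean of at least 5 CPM in the higher group, several of the largest rises started from low levels at 1.5 h. CLCA2, a regulator of chloride currents and a target of p53, was at 0.178, 0.115, 0.0844, 0.117 and 0.0566 CPM early and 10.2, 11.4, 10.8, 9.43 and 9.52 CPM late (log2 fold change 6.48 ± 0.18 SE, adjusted p = 7.26e-17). PNLIPRP3, a lipase-related gene, was at 0.102, 0.0288, 0.0562, 0.0586 and 0.142 CPM early and 5.12, 5.62, 8.45, 6.54 and 6.48 CPM late (log2 fold change 6.30 ± 0.27 SE, adjusted p = 3.23e-14), with a log2 fold change of 5.67 within the shared lane. TREM2, a lipid receptor known from macrophages, was at 0.102, 0.0576, 0.337, 0.0879 and 0.085 CPM early and 4.33, 8.38, 7.35, 6.03 and 6.98 CPM late (log2 fold change 5.58 ± 0.32 SE, adjusted p = 3.12e-12), and without early replicate 3, the highest early library, the log2 fold change was 6.22. Every late library of these genes was above 4 CPM and every early one below 0.5 CPM. LCE1B, PTPN22, CEACAM1, F5, MYCT1 and KCTD4 rose with log2 fold changes of 5.37, 5.20, 4.94, 4.61, 4.25 and 4.17. NTRK2, the receptor of the growth factor BDNF, went from 1.15 ± 0.215 to 17.2 ± 0.577 CPM, KYNU, an enzyme of tryptophan breakdown, from 1.48 ± 0.267 to 19.2 ± 1.42 CPM, and CD68, a lysosomal membrane protein, from 1.89 ± 0.158 to 23.2 ± 1.67 CPM.

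The largest falls were ranked under the same limits. TNNC1, which codes for a troponin of slow muscle, was at 71.9, 61.8, 58.3, 66.8 and 70.4 CPM early and 4.8, 5.16, 6.57, 4.93 and 4.37 CPM late (log2 fold change -3.67 ± 0.14 SE, adjusted p = 1.22e-14), and UT cells were at 78.1 ± 16.1 CPM. DRD1, a dopamine receptor, was at 26, 28.5, 29.4, 30.7 and 33.5 CPM early and 2.55, 3.12, 2.74, 2.74 and 2.22 CPM late (log2 fold change -3.47 ± 0.14 SE, adjusted p = 1.59e-14). NES, which codes for the intermediate filament nestin, was at 62.4, 58.9, 41.3, 54 and 65.9 CPM early and 6.85, 7.1, 6.72, 6.27 and 7.27 CPM late (log2 fold change -3.05 ± 0.14 SE, adjusted p = 1.6e-13). Early libraries lay near the UT level, where DRD1 was at 30.1 ± 7.25 and NES at 60.3 ± 11.5 CPM. KIAA1210, ALPP, CNTNAP2, TNNT2, CAPN6 and OLFML2A fell with log2 fold changes of -3.77, -3.35, -3.33, -3.26, -3.16 and -3.02. GLI1, the transcription factor and target of Hedgehog signalling, went from 17.1 ± 0.733 to 2.43 ± 0.20 CPM, and CCL24, a chemokine for eosinophils, from 12.3 ± 0.182 to 1.67 ± 0.371 CPM.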

How the data were processed

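The table that the authors deposited holds raw counts, whole numbers that were not normalized, of 20314 genes in 20 libraries. The submitters' processing notes name bcl2fastq, Trimmomatic, STAR 2.4.2a and hg19, and the paper's methods name stranded mRNA libraries and single reads of 100 bases. The counter, annotation and strand setting are not given in the sources used here, so that overlapping genes can share reads. No reference of build hg19 was used, and promoter windows are from RefSeq on GRCh38.p14.

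The counts were fitted with edgeR 4.0.16 (R 4.3.3). Genes were filtered by filterByExpr (minimum count 10) and library sizes scaled by TMM. The quasi-likelihood test was run in 1 model of all 20 libraries, a term per group and no covariate, NFKBIA knockdown and UT libraries included, and p was adjusted by Benjamini-Hochberg over 14992 genes. Calls required a log2 fold change over 0.5 in size and an adjusted p under 0.05, and "rose" and "fell" are used of called genes only. SEs came from the F statistic. Folds from early libraries with 3 counts or fewer were computed against 3 counts per library and are lower bounds. Depth differed by less than 1.5 times among the 10 libraries. The p values measure the spread between libraries labelled as biological replicates.

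Members and lists were chosen with earlier results of these data known, so no list was tested, and lists are given by their counts. Named genes were the 15 largest rises and 15 largest falls with no overlap and a mean of 5 CPM or more, up to 5 rises, 5 falls and 3 uncalled genes per list, and genes that the paper names. Those printed were picked from these after their values were seen, as were ATR, BST2, CCNB2, DDX58, EZH2, FOS, GAA, GLB1, IER3, IFIT3, JUN, JUND, KIF11, PLK1, PSAP, RRM2B, SREBF2, STAT2 and TIMP1 outside the rule. No 2 libraries agreed within sampling noise. Alternatives comprised other size factors, other filters and fold limits, DESeq2 1.42.0, fits of 10 libraries with a replicate block or lane factor, lane 4 alone and leaving out each library. Both tools were tested on simulated data beforehand. Figures used matplotlib 3.10.9.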

Additional observations from a re-analysis of the deposited data

Results flagged for a closer look

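Dixon's test at its 95% critical value of 0.71 for 5 libraries was applied to 326 groups of 5 libraries, the genes given with values in the main text at either time point. MARCO, ITGAX and the genes named only under the other observations were not included. The test marked 16 of the 326 groups, and chance alone marks about 5%. In each case 1 library lay far from the other 4, and the values are in CPM.

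At 1.5 h, replicate 3 was high in ASNS at 347 (others 78.9 to 156), in TREM2 at 0.337 (0.0576 to 0.102) and in IL1B at 0.0281 (others 0). Replicate 5 was high in BIRC3 at 101 (86.1 to 88.7) and in CXCL14 at 58.8 (43.9 to 47.2). Replicate 1 was high in JUND at 158 (91.2 to 104) and low in MMP2 at 897 (937 to 951) and in REL at 54.3 (65.5 to 69.8). Replicate 2 was low in CSF1 at 34.2 (38.5 to 39.2) and in DUSP2 at 26.7 (30.6 to 31.1).

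At 7 days, replicate 1 was low in GDF15 at 38.5 (48 to 51.7) and high in MCM6 at 72.2 (67.1 to 68.2). Replicate 2 was high in PPM1D at 139 (131 to 133), replicate 3 in ALPL at 55.1 (41.2 to 44.6), replicate 4 in IL6 at 2.4 (1.55 to 1.72) and replicate 5 in TNNT2 at 1.86 (1.48 to 1.5). Apart from ASNS and REL, whose values are given beside the result, none of these genes changed its call when 1 library was left out.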

How the results depend on the processing

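Counts of genes higher and lower at 7 days stayed within 1.5 times of 2513 and 1885 under the other size factors, filters and sets of libraries, and no gene was called in the opposite direction. They were 3013 and 1969 with DESeq2, 3236 and 2112 with no filter, 2044 and 1725 with 10 counts in every library, 2326 and 1835 with lane as a factor, 2538 and 1980 without UT replicate 5, and 2386 to 2525 and 1877 to 2015 when each library was left out. With no fold threshold they were 4799 and 4332, and with a log2 fold change over 1 they were 1119 and 507.

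Replicate numbers did not pair the libraries, with correlations of same-numbered deviations of -0.136 to 0.088. A replicate block in a fit of the 10 libraries gave 2465 and 1910 genes, against 2471 and 1920 without it.

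The median of SASP growth factors turned negative with 10 counts in every library (-0.0836), with lane as a factor (-0.031), within lane 4 (-0.039) and without replicate 4 at 1.5 h (-0.0381) or at 7 days (-0.0376), and was 0.0999 without replicate 5 at 1.5 h, and the cause was not tested. Little can be said of genes with few reads, such as CDKN2A, which had at most 2 counts in any library after IR.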

Other observations

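Further gene groups were put together after the values had been seen, and their counts are descriptions without a test, beside 16.8% of all genes tested that rose and 12.6% that fell. Of 19 complement genes tested, from 27 on the list, 14 rose and 1 fell, with a median log2 fold change of 0.852. C1S, a protease of the classical pathway, went from 3.16 ± 0.345 CPM (SD, n = 5) at 1.5 h to 26.4 ± 2.8 CPM at 7 days, and C3, the central component, had a log2 fold change of 2.03 ± 0.17 (SE). The regulator CFI rose (3.21 ± 0.19), and CFD, a protease of the alternative pathway, fell (-1.19 ± 0.28). Genes of condensin and cohesin, the rings that shape mitotic chromosomes, fell in 12 of 13 with a median of -0.831. Of 27 splicing factors of the hnRNP and SR families 13 fell and none rose, with a median of -0.5. Of 25 actin cytoskeleton genes 8 fell and 1 rose. ACTB went from 5452 ± 335 to 2833 ± 115 CPM and TMSB4X and TPM1 fell (-1.59 ± 0.17 and -1.51 ± 0.088), while ACTA2, the actin of smooth muscle, rose (1.62 ± 0.067).

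Genes that are known from other tissues were among the large rises. A gene with few reads at 1.5 h was tested only where another group held enough reads, which favours rises in the counts of this paragraph. Of 18 epidermal differentiation genes tested, from 31 on the list, 13 rose and 4 fell, with a median log2 fold change of 2.74. LCE1C and LCE1E, which had at most 6 and 4 counts in an early library, were among those that rose. KRT34, a hair keratin, and COL17A1, a hemidesmosome collagen, rose (3.99 ± 0.15 and 3.20 ± 0.088), while KRT14, a keratin of basal epidermis, fell (-2.48 ± 0.17). All 5 pregnancy-specific glycoprotein genes tested, from 10 on the list, rose with a median of 3.08. PSG2 and PSG3 among them had at most 5 and 6 counts in an early library. Near-identical sequences of these genes make single values uncertain. Of 10 macrophage markers tested, from 18 on the list, 8 rose and none fell, with a median of 1.75. They included CD68, MARCO and ITGAX (3.62 ± 0.25, 2.72 ± 0.11 and 2.21 ± 0.10), at 23.2, 38.3 and 25.7 CPM on average at 7 days, and PTPRC and CSF1R (0.66 ± 0.19 and 0.56 ± 0.20), at 1.34 and 0.761 CPM.

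By class of gene, 22 of 60 long intergenic noncoding RNAs tested rose (36.7%) and 2 fell (3.33%), against 16.6% and 12.7% of 14592 protein-coding genes. In the fifth of genes that span most DNA 20.8% rose, against 14.6 to 17.6% in the other four.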
